A study of Gallus gallus with 10 samples.

Results

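The 7 genes UTP3, POMGNT2, AGK, NUDT2, HDGFL3, VASH1 and VPS13A were described in the magnum of broiler breeder hens (Gallus gallus), out of 29558 genes in the count table and 1773 with enough counts to be tested. They were chosen by their measured values, as genes whose counts were higher on average at 50 weeks of age, in declining lay, than at 35 weeks, at peak lay. Each age had 5 hens with 1 library each, and no other treatment or genotype is given in the labels. RNA came from whole magnum with an egg in it, so every library mixes the cell types of that oviduct segment. In such samples fewer cells of a type and less RNA per cell cannot be told apart.

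The magnum secretes egg white around the yolk. Its tubular gland cells make ovalbumin, ovotransferrin, ovomucoid and lysozyme in large amounts under steroid hormones, while ciliated and goblet cells line the lumen. The 7 genes belong to no single pathway. UTP3 is part of the machinery that assembles the small ribosomal subunit in the nucleolus. POMGNT2 adds a sugar to O-mannosyl glycans in the endoplasmic reticulum, a step needed for dystroglycan to bind the matrix. AGK phosphorylates lipids in mitochondria and is a subunit of the carrier translocase of the inner membrane. NUDT2 cleaves diadenosine tetraphosphate. HDGFL3 belongs to the family of hepatoma-derived growth factor. VASH1 encodes vasohibin, which removes the terminal tyrosine of tubulin and is known in mammals as an inhibitor of vessel growth. VPS13A carries lipids between membranes at contact sites. These roles were established mostly in human and mouse cells.

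Library totals lay between 188271 and 258195 counts, and all 7 genes passed the filter on low counts. Ranked by scaled counts over both ages, which is not a ranking per transcript length, VPS13A was 4th, UTP3 7th, AGK 47th, NUDT2 48th, POMGNT2 51st, HDGFL3 154th and VASH1 629th of the 1773. Abundant therefore describes the first 6 better than VASH1, which had 28 to 81 counts in a library. All 8 markers of egg white gland cells were counted and held 4.05% to 5.40% of counts at 35 weeks and 2.71% to 4.04% at 50 weeks. The sample titles also name the shell gland, a later segment. Of its 8 markers 6 had counts, together at most 0.0102% of a library, and CALB1 and SPP1 were at 0 throughout. On the first principal component (28.8% of variance) 3 hens lay far from the rest. Younger hens 1 and 2 scored −10.5 and −17.0 and older hen 4 scored −11.1, against 1.75 to 7.11 in the other 7.

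The levels below are those of the deposited counts and may not be levels of each gene's own messenger RNA. Genes that every cell uses had few counts: GAPDH 1 to 7 per library, RPLP0 0 to 7, RPL3 1 to 7, RPS3 3 to 10, EEF2 3 to 13, HSPA8 4 to 19 and EEF1A1 29 to 84. ACTB had 74 to 93 counts in the 3 hens that lay apart and 11 to 22 in the other 7. These 8 genes were picked after their counts had been seen. The library kit marks the strand of the RNA, and the strand on which reads were assigned to genes is not stated in any source used. Whether the reads assigned to the 7 genes, or to the egg white and marker genes, came from their own strand was not tested. Neither reads nor gene strands were at hand.

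Values are counts per 1000000 (CPM), scaled by each library's total and a normalization factor. A fold change is the fitted log2 ratio of 50 to 35 weeks with its standard error. For the 7 genes it is a description of how they were chosen and carries no test. The quasi-likelihood test of edgeR called 1 of 1773 genes (0.0564%) at an adjusted p below 0.05, and their median log2 fold change was 0.0060. Log2 fold changes at or above that of VPS13A, the smallest of the 7, were found in 77 tested genes.

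UTP3, the ribosome assembly gene, had 12721, 6405, 7759, 3693 and 6500 CPM in replicates 1 to 5 at 35 weeks, and 11870, 21587, 15889, 13268 and 16934 CPM at 50 weeks. Its means were 7416 ± 3316 (SD, n = 5) and 15910 ± 3761 CPM, a log2 fold change of 1.10 (SE 0.28). Replicate 1 at 35 weeks lay above the lowest hen at 50 weeks, and in 24 of the 25 comparisons of a hen at 50 with a hen at 35 weeks the older hen was higher. In the annotation UTP3 lies on chromosome 4 at 49528571 to 49530273 (GRCg7b), inside the span of RUFY3, an adaptor of vesicle transport. RUFY3 had 153 to 285 counts per library where UTP3 had 764 to 4806, and its log2 fold change was 0.25 (SE 0.14; edgeR adjusted p = 0.576). With the strand of counting unknown, reads of UTP3 and RUFY3 cannot be told apart with certainty. JCHAIN, the joining chain of secreted antibodies and the nearest gene before it, had 5 to 22 counts (log2 fold change 0.63, SE 0.33, adjusted p = 0.548 in edgeR's test).

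POMGNT2, the O-mannose glycosyltransferase gene, lies on chromosome 2 at 41018798 to 41050865. It had 2267, 1591, 1579, 952 and 1725 CPM in replicates 1 to 5 at 35 weeks, and 3660, 4793, 3615, 1501 and 3100 CPM at 50 weeks. The means were 1623 ± 468 and 3334 ± 1197 CPM, a log2 fold change of 1.04 (SE 0.28). Of the older hens 4 lay above every younger one, and replicate 4 lay among the younger hens, so the ages overlapped. The nearest annotated gene starts 6573 bases after POMGNT2.

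AGK, the mitochondrial lipid kinase gene, lies on chromosome 1 at 57321342 to 57352640. It had 2285, 1530, 1888, 1668 and 2350 CPM at 35 weeks in the order of the replicates, and 3679, 3903, 3008, 2259 and 2893 CPM at 50 weeks. The log2 fold change was 0.70 (SE 0.18), between means of 1944 ± 365 and 3149 ± 657 CPM. The overlap again came from replicate 4 at 50 weeks, which lay below replicates 1 and 5 at 35 weeks. DENND11, the nearest gene after AGK, had 0 to 6 counts.

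NUDT2, the dinucleotide hydrolase gene, lies on chromosome Z at 8150139 to 8156031. It had 1945, 1683, 1638, 1895 and 2297 CPM at 35 weeks and 3439, 4146, 3598, 1454 and 3355 CPM at 50 weeks. Its 5 younger hens were close together, with an SD of 0.19 on the log2 scale, whereas the older hens had an SD of 0.60. Replicate 4 at 50 weeks was below every younger hen, and the other 4 older hens were above every younger hen. The means of 1892 ± 262 and 3198 ± 1022 CPM gave a log2 fold change of 0.76 (SE 0.22). KIF24, a kinesin gene that ends 116 bases before NUDT2, had 0 to 3 counts.

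HDGFL3 had 787, 857, 798, 624 and 737 CPM at 35 weeks and 1063, 1572, 1277, 747 and 1256 CPM at 50 weeks. Here too replicate 4 at 50 weeks was the one older hen within the range of the younger. The log2 fold change was 0.64 (SE 0.18), from 760 ± 87.6 to 1183 ± 304 CPM. HDGFL3 could not be matched by symbol to the gene table used for positions, unlike the other 6.

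VASH1, the vasohibin gene, lies on chromosome 5 at 38373350 to 38388289. Younger hens had 172, 197, 191, 135 and 155 CPM, and older hens 304, 364, 270, 241 and 255 CPM. The means were 170 ± 25.5 and 287 ± 49.1 CPM, and the log2 fold change was 0.75 (SE 0.18). It was the 1 gene of the 7 in which every older hen lay above every younger hen, a pattern found in 9 of the 1773 tested genes (0.508%). That count follows from how the genes were chosen. The spread of VASH1 between hens was near its counting error: the SD on the log2 scale was 0.21 at 35 weeks and 0.23 at 50 weeks, and counting alone gives 0.243 and 0.178. ANGEL1, which starts 534 bases after it, had 0 to 3 counts.

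VPS13A, the lipid transfer gene on chromosome Z at 38221136 to 38324707, held the most counts of the 7 and varied most between older hens. It had 18191, 11293, 15533, 10881 and 19756 CPM at 35 weeks and 33588, 23864, 29485, 5460 and 24624 CPM at 50 weeks. Replicate 4 at 50 weeks was the lowest of all 10 hens, and the other 4 older hens were above every younger hen. The log2 fold change was 0.63 (SE 0.39), from 15131 ± 3991 to 23404 ± 10775 CPM. Its biological coefficient of variation, the spread between hens beyond counting error, was 0.406 (89.0th percentile of tested genes), against a median of 0.246. In the annotation 3 genes overlap VPS13A. GNA14, a G protein gene, had 0 to 3 counts, and the long noncoding RNAs LOC112530518 and LOC121108625 could not be matched to a row of the counts. With the strand of counting unknown, the reads of VPS13A and of these genes cannot be told apart with certainty.

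**Figure D1:**
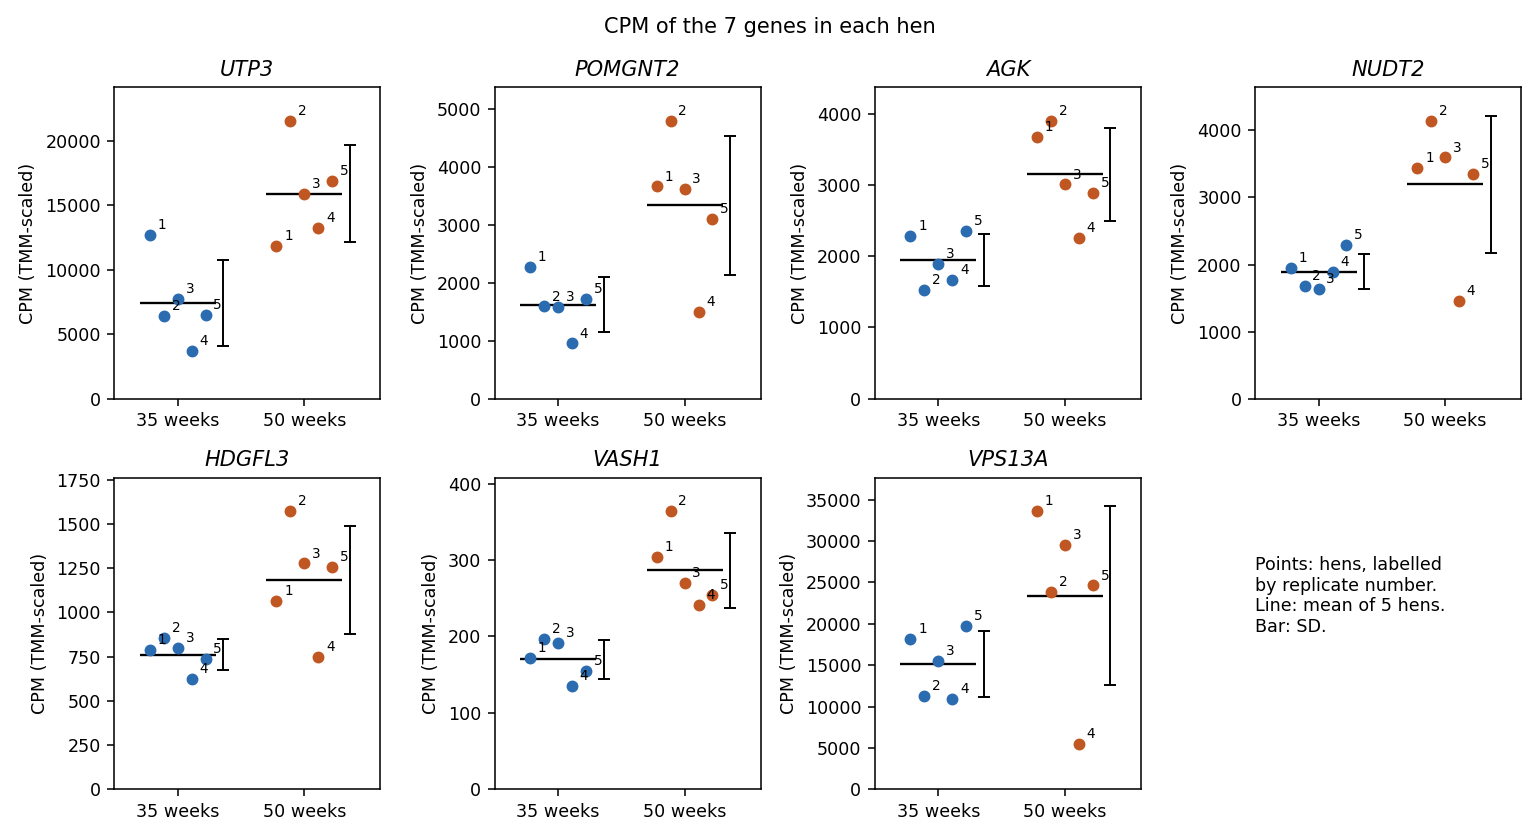
Scaled CPM of each of the 7 genes (vertical axes, linear, from 0) in 5 hens at 35 weeks and 5 at 50 weeks. Points are hens labelled by replicate number, lines are means and bars are SDs; replicate 4 at 50 weeks is the lowest older hen in every panel except that of UTP3.

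The authors' deposited table of their own comparison, which holds 206 genes against 29558 in the count table, lists UTP3 and POMGNT2 of the 7. Its fold changes are 35 against 50 weeks, so the sign is opposite. In the authors' deposited table UTP3 is at −1.11 on the log2 scale (SE 0.29, adjusted p = 0.0362), and POMGNT2 at −1.05 (SE 0.29, adjusted p = 0.0636). The smallest absolute log2 fold change in the authors' deposited table is 0.957. The 7 genes were chosen by this same contrast in the same hens. Their values here are a description and no separate test.

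As a share of all counts, the 7 genes together held 3.80%, 2.29%, 2.89%, 1.95% and 3.33% in replicates 1 to 5 at 35 weeks. At 50 weeks they held 5.73%, 6.13%, 6.03%, 2.48% and 5.32%. Most of this was UTP3 and VPS13A, and the other 5 genes held 0.630% ± 0.0964 (SD, n = 5) and 1.13% ± 0.325. The 24 egg white genes found in the table were counted in the same way. They held 5.76%, 5.00%, 4.58%, 4.41% and 4.34% at 35 weeks and 4.33%, 2.98%, 3.62%, 3.19% and 3.44% at 50 weeks. In all 5 younger hens the egg white genes held more counts than the 7 genes, and in 4 of the 5 older hens they held fewer. This crossing follows largely from how the 7 genes were chosen.

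**Figure D2:**
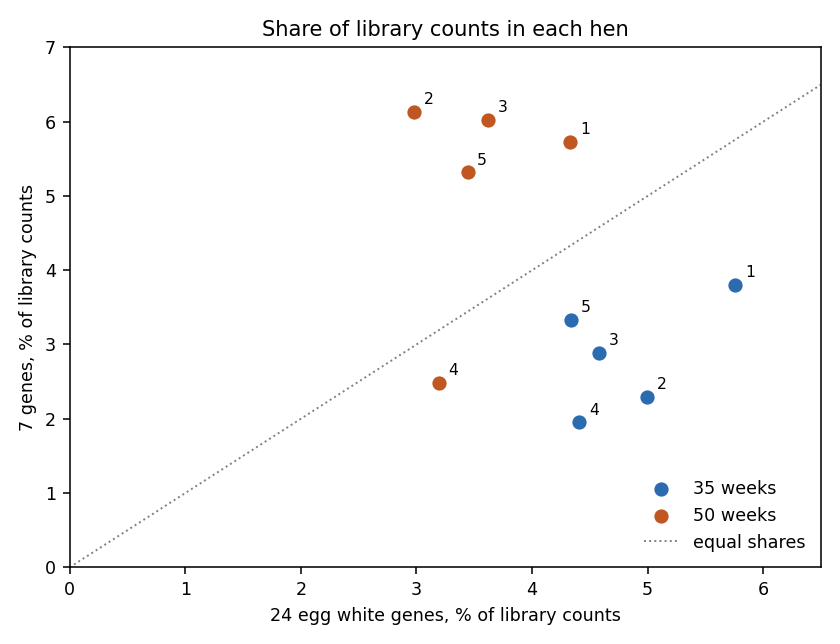
Percent of library counts in the 7 genes (vertical axis) against percent in 24 egg white genes (horizontal axis) for each hen, coloured by age and labelled by replicate number; the dotted line marks equal shares. The older hens 1, 2, 3 and 5 lie above the line at 5.32% to 6.13%, while replicate 4 at 50 weeks lies below it at 2.48%. That hen is within the range of the younger hens on the vertical axis only. The 7 genes were chosen as higher at 50 weeks.

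The egg white sum was made up mainly of OVAL (ovalbumin, 57.7% of it), TF (ovotransferrin, 13.0%), SPINK7 (ovomucoid, 11.5%) and OVALY (4.62%). OVALX, LYZ, CST3, ORM1, RBP, SPINK5, CLU, OVST, AvBD11, MUC6, EXFABP, AVD, PIGR, APOD, SERPINB6 and VMO1 each averaged at least 10 CPM, and the remaining genes less. Its mean share was 4.82% ± 0.586 at 35 weeks and 3.51% ± 0.518 at 50 weeks, a difference of −1.30 points (exact two-sided permutation p = 0.00794, the smallest that 252 assignments allow). The egg white list was drawn up with earlier results of these data known, so this p is a description and no independent test. Every older hen was below every younger hen, narrowly, at 4.330% against 4.336%. The sum does not stand for each gene in it. Of the tested egg white genes CST3, SPINK5 and MUC6 had positive log2 fold changes (0.045, 0.0028 and 0.47), and the others negative ones. None passed in edgeR's test, with OVAL at −0.37 (adjusted p = 0.382 in edgeR's test). Nearer the threshold in edgeR's test were TF at −0.83 and OVALY at −0.75 (edgeR adjusted p = 0.0984 for each) and SPINK7 at −0.78 (edgeR adjusted p = 0.175). In TF, OVALY and SPINK7 every older hen was below every younger hen, a pattern not confined to egg white genes. The share of all tested genes with this pattern was not counted, so it has no background here.

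Whether the 7 genes rose and fell together from hen to hen was examined with each age's mean removed, since the means had chosen the genes. After this step a hen is described by its distance from the other hens of its age. Replicate 2 at 50 weeks was the highest older hen for 6 of the 7 genes, all but VPS13A, from 0.26 above the age mean on the log2 scale for VPS13A to 0.62 for POMGNT2. Replicate 4 at 50 weeks was the lowest for 6, all but UTP3, at −1.87 for VPS13A, −1.05 for POMGNT2 and NUDT2, −0.62 for HDGFL3, −0.45 for AGK and −0.23 for VASH1. Among younger hens replicate 4 was the lowest for 5 genes, at −0.89 for UTP3 and −0.71 for POMGNT2, and stood at 0.01 for NUDT2. The highest younger hen differed between genes: replicate 1 for UTP3 and POMGNT2, replicate 2 for HDGFL3 and VASH1, and replicate 5 for AGK, NUDT2 and VPS13A.

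**Figure D3:**
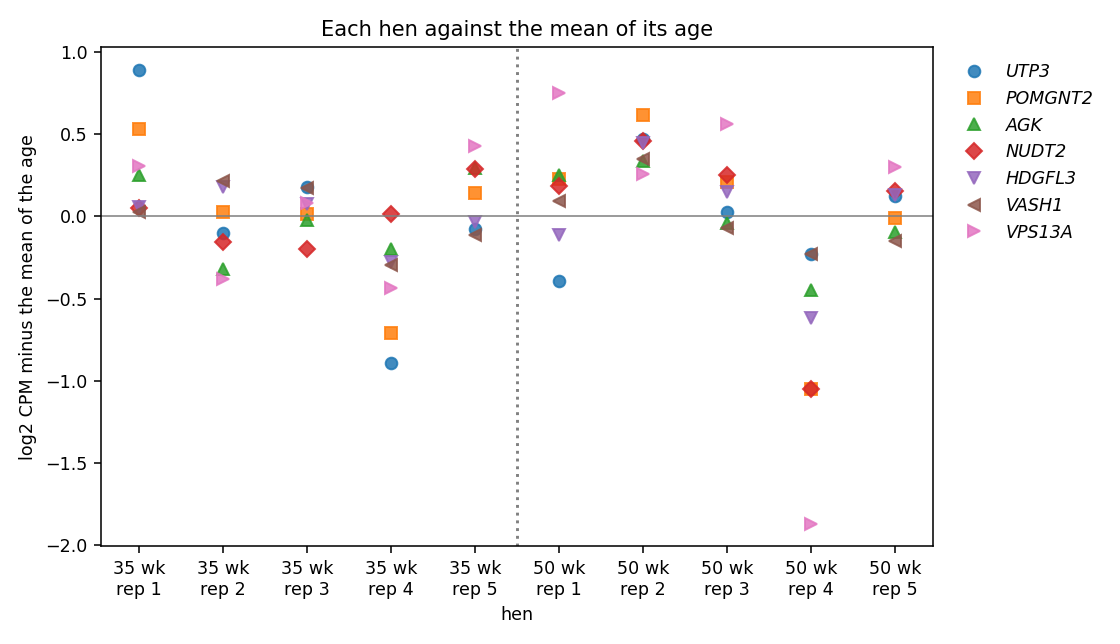
Log2 scaled CPM of each gene in each hen minus the mean of that age (vertical axis), with the 5 hens of each age side by side and a different symbol for each gene. Replicate 4 at 50 weeks lies below its age mean for all 7 genes, from −0.23 to −1.87, and replicate 2 at 50 weeks lies above it for all 7, from 0.26 to 0.62.

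All 21 pairs of the genes had a positive Pearson r over the 10 hens, from 0.22 for UTP3 with NUDT2 to 0.91 for NUDT2 with VPS13A, with a median of 0.70. Over all 1570878 pairs of tested genes the median was −0.00093, 49.9% of pairs were positive and 10.6% reached 0.5, which 15 of the 21 pairs did. Among the 624 genes counted at least as often as VASH1 the median was 0.00095 and 12.0% reached 0.5. The pairs share hens, libraries and members, so they are not independent of each other. No pair passed the threshold. By exact two-sided permutation of hens within each age (14400 arrangements), 11 of the 21 had an unadjusted p under 0.05, and none had an adjusted p under 0.05 over the 28 relations tested. The share of all pairs of tested genes with such an unadjusted p was not computed, so the 11 have no background.

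POMGNT2 was the gene most alike to the rest, with r from 0.69 to 0.86 and a median of 0.80. With HDGFL3 its r was 0.86 (Spearman's rho 0.50, exact permutation p = 0.00917 and 0.194, adjusted p = 0.0642 and 0.415). With AGK its r was 0.81 (rho 0.82, exact permutation p = 0.00778 and 0.00813, adjusted p = 0.0642 and 0.198). AGK had an r of 0.79 with VPS13A (rho 0.62, exact permutation p = 0.00632 and 0.0691, adjusted p = 0.0642 and 0.242). AGK had an r of 0.77 with NUDT2 (rho 0.76, exact permutation p = 0.00688 and 0.0142, adjusted p = 0.0642 and 0.198). The highest r, that of NUDT2 with VPS13A, had a rho of 0.71 (exact permutation p = 0.0455 and 0.0356, adjusted p = 0.116 and 0.201). UTP3 and VASH1 were the least alike to the others, with medians of 0.50 and 0.47. The spread of VASH1 between hens was near its counting error, which can by itself lower its r.

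Much of this rested on a few hens. Leaving out, for each pair, the 2 hens farthest from the median of the first gene lowered the median r to 0.41, with 18 of 21 positive. This choice narrows the range of the first gene, which can by itself lower r. The pair of NUDT2 with VPS13A then had an r of 0.56, POMGNT2 with HDGFL3 0.39, POMGNT2 with AGK 0.71, AGK with NUDT2 0.63 and AGK with VPS13A 0.95. Without replicate 4 at 50 weeks alone the median was 0.46, with 18 of 21 positive, and NUDT2 with VPS13A fell to 0.33. Without all 3 hens that stood apart the median over 7 hens was 0.59, with 20 of 21 positive, and 2 pairs had an unadjusted exact permutation p under 0.05. Shares over all pairs of tested genes were not computed for these smaller sets of hens. Leaving out replicate 2 at 35 weeks took POMGNT2 with AGK past the threshold (r = 0.91, exact permutation adjusted p = 0.0389, range over all alternatives 0.0389 to 0.849). Leaving out replicate 2 at 50 weeks took AGK with VPS13A past it (r = 0.83, exact permutation adjusted p = 0.0292, range 0.0292 to 0.486).

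**Figure D4:**
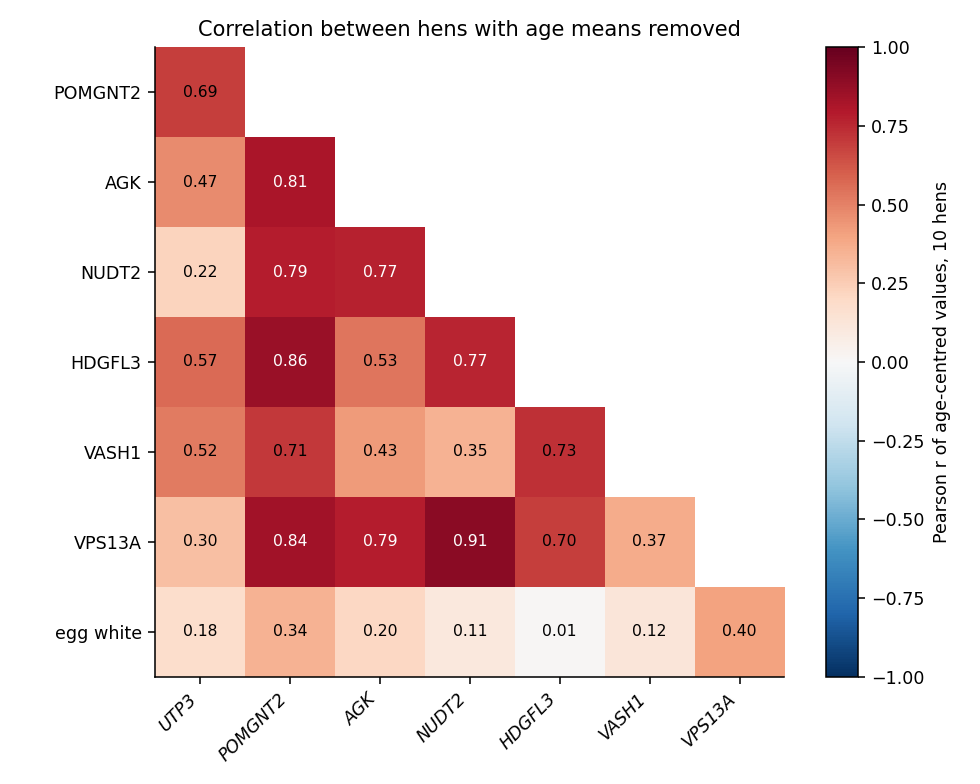
Pearson r between the 7 genes, and of each gene with the egg white share in the lowest row, over 10 hens after the mean of each age was removed; colour runs from −1 (blue) to 1 (red). The 21 cells for pairs of genes lie between 0.22 and 0.91, and the 7 cells for egg white between 0.01 and 0.40.

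With the summed egg white share, none of the 7 genes had a correlation past the threshold once age was removed. Over all 10 hens, on the log2 scale r was 0.40 for VPS13A (rho 0.43), 0.34 for POMGNT2 (rho 0.22), 0.20 for AGK (rho −0.15), 0.18 for UTP3 (rho −0.05), 0.12 for VASH1 (rho 0.18), 0.11 for NUDT2 (rho −0.18) and 0.01 for HDGFL3 (rho 0.02). The exact permutation p-values lay between 0.347 for VPS13A and 0.975 for HDGFL3, and the adjusted p-values between 0.495 and 0.975. For Spearman's rho they lay between 0.251 and 0.975, and between 0.469 and 0.975 when adjusted. Over all 1773 tested genes the median r with the egg white share was 0.03, between −0.90 and 0.94. With 10 hens these values do not show that the genes and egg white vary independently.

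The size and sign of these relations depended on which hens were included. Without older hen 2, which was high for most of the genes and had the lowest egg white share, all 7 r were higher. They were then 0.71 for POMGNT2, 0.61 for VASH1, 0.53 for AGK and for VPS13A, 0.43 for UTP3, 0.40 for HDGFL3 and 0.37 for NUDT2, with exact permutation p-values of at least 0.0618. Without older hen 4, r was −0.40 for NUDT2 and −0.34 for HDGFL3, and without younger hen 1 it was −0.35 for UTP3. Other sets of hens left out turned the sign of 6 of the 7 relations. Without the 2 hens farthest from the median egg white share, r was −0.48 for AGK, 0.15 for VPS13A and between −0.06 and 0.14 for the other 5. Without the 3 hens that stood apart it was −0.77 for HDGFL3, −0.56 for UTP3, −0.52 for NUDT2 and 0.48 for VPS13A, with exact permutation p-values of at least 0.104 over 7 hens. Replicate 1 at 35 weeks, which had the highest egg white share and the highest UTP3 and POMGNT2 of the younger hens, was 1 of the 3. With the ages left in, the r over 10 hens was −0.67 for VASH1, −0.59 for HDGFL3, −0.57 for UTP3 and for AGK, −0.48 for NUDT2, −0.43 for POMGNT2 and −0.01 for VPS13A. These last values are a description, since the genes were chosen to be high in the age where egg white was low.

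Markers of other cells differed in the hen that was lowest for most of the genes. In replicate 4 at 50 weeks the 10 fibroblast and matrix markers, all with counts, held 0.0910% of the library, and the other 4 older hens ranged from 0.00613% to 0.0102%. In younger hens 1 and 2 they held 0.0497% and 0.0588%, and in the other 3 from 0.00523% to 0.0261%. T and NK cell markers, 5 of 9 with counts and CD3D, CD4 and ZAP70 at 0, held 0.0488% of that older hen's library, and 0.0191% to 0.0232% in the remaining 4. Epithelium markers, 4 of 8 with counts, held 0.0236% against 0.00549% to 0.0137%. Endothelium markers, 9 of 9 with counts, held 0.0507% against 0.0714% to 0.0941%, and ciliated epithelium markers, 14 of 17 with counts and PIFO at 0, held 0.120% against 0.148% to 0.177%. Smooth muscle markers, 7 of 8 with counts, were slightly lower, at 0.0120% against 0.0137% to 0.0191%. Macrophage and dendritic cell markers, 6 of 10 with counts, were slightly higher, at 0.00852% against 0.00489% to 0.00832%. Of these C1QA, C1QB, C1QC and MARCO were at 0. Younger hens 1 and 2 differed from the other 3 younger hens in the same direction for epithelium markers (0.0255% and 0.0213%, where the others had 0.00850% to 0.0147%) and endothelium markers (0.0766% and 0.0571%, where the others had 0.0845% to 0.0983%). For ciliated epithelium markers they lay the opposite way, at 0.176% and 0.188% where the others had 0.140% to 0.158%. Macrophage and dendritic cell markers held 0.00448% and 0.00511% in these 2 hens where the others had 0.00575% to 0.006905%, a difference of few counts. For smooth muscle markers these 2 hens lay within the others, at 0.0148% and 0.0179% against 0.0110% to 0.0309%. For T and NK cell markers hen 1 lay within the others (0.0251% against 0.0235% to 0.0255%) and hen 2 above them at 0.0324%. Egg white gland markers did not set older hen 4 apart: it had 2.83%, within the 2.71% to 4.04% of the other older hens. In libraries of 188271 to 258195 counts the macrophage and dendritic cell and smooth muscle shares are few counts. Counting error was not computed for any marker share. The part of these differences in the low values of older hen 4 was not tested.

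Most other genes of the pathways in which the 7 take part had few counts. Of 209 listed genes 177 were in the table, 166 had a count and 21 could be tested. Of these 1, TIMM13, was lower at 50 weeks and none was higher at an adjusted p under 0.05 in edgeR's test. TIMM13 was itself the 1 gene called among all 1773 tested genes (0.0564%). That share is therefore no independent background for the lists. TIMM13 encodes a small chaperone that hands proteins to the carrier translocase of the inner mitochondrial membrane, of which AGK is a subunit. Its mean fell from 666 ± 179 to 190 ± 38.4 CPM (log2 fold change −1.81, SE 0.21; edgeR adjusted p = 0.000874), opposite in sign to AGK. The other tested genes of mitochondrial import were split, 1 with a positive and 3 with a negative fold change, and GRPEL1, a cochaperone of the import motor, was at −0.61 (SE 0.24, adjusted p = 0.355 in edgeR's test). The 5 tested genes of this list had a median log2 fold change of −0.40.

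Of the small subunit assembly genes beside UTP3, 4 of 54 were tested and none passed. Of these 3 had a positive and 1 a negative fold change, with a median log2 fold change of 0.21. RRP7A, which had high counts, averaged 1501 and 1594 CPM and was at 0.086 (SE 0.17). RRP12 was at 0.33 (SE 0.23) and BYSL at 0.37 (SE 0.28), both factors of small subunit maturation. The dystroglycan pathway beside POMGNT2 had 4 of 18 tested, 2 with a positive and 2 with a negative fold change, and a median of 0.07. The 2 with the smallest p were both positive. DOLK, which makes the dolichol phosphate that carries mannose, was at 0.45 (SE 0.36) and the O-mannosyltransferase gene POMT1 at 0.18 (SE 0.22). Of the hydrolases beside NUDT2, 2 of 25 were tested, NUDT6 at 0.97 (SE 0.58) and NUDT13 at 0.23 (SE 0.59). Of the chromatin readers that share a PWWP domain with HDGFL3, 2 of 19 were tested, its relative HDGF at −0.90 (SE 0.43) and BRPF3 at −0.32 (SE 0.26). All 4 tested of 36 tubulin and vessel genes beside VASH1 had negative fold changes. SVBP, the protein that binds vasohibin and makes it active, was at −0.56 (SE 0.53) and averaged 491 ± 413 and 334 ± 132 CPM, and the tubulin glutamylase gene TTLL5 was at −0.35 (SE 0.20). In these 5 lists no gene passed in edgeR's test, none had an unadjusted p under 0.05, and the adjusted p of the genes named lay between 0.483 and 0.934. None of the 30 lipid transfer genes beside VPS13A had enough counts to be tested, and the median one averaged 0.7 counts per library.

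The genes with a symbol whose pattern between hens of 1 age was most like that of the 7 were ranked by the Pearson r of their age-centred values with the mean of the 7, over 10 hens. MGAT4C, an N-glycan branching enzyme gene, came first with an r of 0.90, followed by SRSF7L (0.89), the ribosomal protein gene RPL6 (0.88), the cell cycle phosphatase gene CDKN3 (0.87) and the ribosomal protein gene RPL7 (0.87). In each of the 5 the lowest older hen was replicate 4, which follows largely from how they were ranked. It had 187 CPM for MGAT4C, where the other 4 had 1015 to 1272, and 50.6 CPM for RPL6, where they had 69.1 to 117. For RPL7 it had 7.78 CPM, near the floor of these counts, where they had 34.5 to 63.7. The age differences of the 5 genes were not alike. MGAT4C averaged 457 ± 126 and 954 ± 440 CPM (log2 fold change 1.06, SE 0.42), and SRSF7L 277 ± 51.3 and 389 ± 118 CPM (0.48, SE 0.23). RPL6 averaged 127 ± 30.9 and 79.8 ± 24.3 CPM (−0.67, SE 0.26), RPL7 was at −0.48 (SE 0.43) and CDKN3 at 0.21 (SE 0.14). None passed in edgeR's test, with adjusted p between 0.364 and 0.771.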

How the data were processed

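Whole-number gene counts of 10 libraries, not normalized, were deposited by the authors with a table of their own comparison. The log2 fold changes in that table are the authors', per the file headers, as are its p-values and its mean normalised signal per gene. Libraries were made from total RNA with a strand-marking kit, per the labels' protocols. Trimmomatic, HISAT2, Cufflinks, DESeq2 and the build GRCg7b are named in the submitters' processing notes. No source used here gives the read counter, its strand setting or any version. Positions are from the RefSeq gene table of the same build, which has no strand column.

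Columns were matched to hens by the column names in the labels. Ages were compared over all genes in edgeR 4.0.16 under R 4.3.3 (filterByExpr, minimum count 10, TMM factors, robust quasi-likelihood fit, age as the one term, Benjamini-Hochberg adjustment). Log2 CPM for correlations used a prior count of 2. Correlations were tested by exact permutation of hens within ages (Python 3.11.15, numpy 2.4.6). Libraries of 1 age differed by more than sampling noise (chi-square of at least 2.66 per degree of freedom). P-values measure the spread between these hens, and counting limits are greatest for genes with few counts. Both tests were tested on simulated data. Alternatives were RLE factors, library totals, other filters, DESeq2 1.42.0, limma 3.58.1, a block for the replicate number, another prior count, Spearman's rho, other egg white sums and leaving out hens.

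The 7 genes, the gene lists and the 3 hens left out together were chosen with earlier results of these data known. Named are the 7 genes, egg white genes averaging at least 10 CPM, the nearest annotated genes within 20 kb, the 2 smallest p of each pathway list with any past the threshold, and the 5 genes most alike between hens. RRP7A was added for its high counts. Neighbours with no matching row in the count table are named where they overlap.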

Additional observations from a re-analysis of the deposited data

Results flagged for a closer look

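In older hen 4 the 7 genes together held 2.48% of counts, where the other 4 hens of that age had 5.32% to 6.13%. The gap to the next hen was 0.776 of the range of that age, above Dixon's critical value for 5 samples. This was 1 of 18 sets of 5 hens looked at, and chance marks about 1 in 20. On the CPM scale no single gene of the 7 was marked at either age, with NUDT2 in this hen closest at 0.706. On the log2 scale, added after the data were seen, this hen was also marked for VPS13A (0.812) and NUDT2 (0.798), and for the 7 together (0.842).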

How the results depend on the processing

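The age comparison called 1 gene in the main test. It called 36 with no filter on low counts, 40 with CPM of 1 or more in 5 libraries, 19 with DESeq2, 12 with limma and sample weights, 42 without the 3 hens that stood apart and 1 to 12 on leaving out 1 hen, with 12 without replicate 4 at 50 weeks. TIMM13 remained the 1 gene called on the pathway lists in every fit. All 7 genes kept a positive log2 fold change in all 19 alternatives, which follows largely from how they were chosen.

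Labels pair no hens, and the numbers were treated as names only. Same-numbered hens correlated at −0.11 to 0.098. For younger hens 1 and 5 the most alike older hen was the one of the same number. These values do not show that the numbers carry no meaning. With a replicate block the age comparison called 2 genes. Removing the block from the correlations leaves same-numbered hens with equal and opposite values. The permutation moved hens within ages without regard to this. The permutation adjusted p of 0.00194 for NUDT2 with VPS13A (range over alternatives 0.00194 to 0.905) is therefore not a valid test. The median r of pairs with the block was 0.37, against 0.41 without the 2 farthest hens. It was 0.33 without replicate 1 at 35 weeks and replicate 4 at 50 weeks, chosen after seeing the data. On leaving out 1 hen 0 to 1 pairs passed. For egg white no relation passed in any alternative.

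Signs that turned are listed by alternative, and the cause was not tested. With the block r was −0.30 for UTP3 with NUDT2, −0.47 for UTP3 with VPS13A, −0.032 for POMGNT2 with VASH1, −0.22 for NUDT2 with VASH1, −0.15 for HDGFL3 with VASH1 and −0.195 for VASH1 with VPS13A. With egg white it was −0.42 for UTP3, −0.67 for POMGNT2, −0.87 for AGK, −0.28 for NUDT2, −0.32 for HDGFL3, −0.69 for VASH1 and −0.19 for VPS13A. By Spearman's rho UTP3, AGK and NUDT2 were at −0.055, −0.15 and −0.18 with egg white. Without the 2 farthest hens r was −0.22 for AGK with HDGFL3, −0.32 for NUDT2 with HDGFL3 and −0.56 for NUDT2 with VASH1, and with egg white −0.026 for UTP3, −0.48 for AGK, −0.057 for NUDT2 and −0.045 for VASH1. Without the 3 hens HDGFL3 with VPS13A was at −0.052, and with egg white UTP3 was at −0.56, POMGNT2 −0.28, AGK −0.10, NUDT2 −0.52, HDGFL3 −0.77 and VASH1 −0.21. Without the pair of hens chosen after seeing the data NUDT2 with VASH1 was at −0.11, HDGFL3 with VPS13A −0.23 and VASH1 with VPS13A −0.037, and with egg white UTP3 was at −0.47, POMGNT2 −0.17, AGK −0.26, NUDT2 −0.58, HDGFL3 −0.50 and VASH1 −0.021. With summed scaled CPM HDGFL3 with egg white was at −0.048. On leaving out 1 hen r ranged from −0.10 to 0.44 for NUDT2 with VASH1, −0.16 to 0.81 for HDGFL3 with VPS13A and −0.013 to 0.48 for VASH1 with VPS13A. With egg white it ranged from −0.35 to 0.53 for UTP3, −0.029 to 0.53 for AGK, −0.40 to 0.37 for NUDT2, −0.34 to 0.40 for HDGFL3 and −0.019 to 0.61 for VASH1.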
